A study of Mus musculus with 6 samples.

Results

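Genes of secreted and membrane-bound matrix proteases and of their inhibitors were compared between cortical neural progenitors and the neurons derived from them. The members are the 50 genes whose symbol is that of a matrix metalloproteinase (Mmp, 22 genes), an ADAMTS protease (18), an ADAMTS-like protein (Adamtsl, 5), a tissue inhibitor of metalloproteinases (Timp, 4) or Reck, out of 19938 genes tested. For each gene the probe set with the highest mean over all arrays was kept. The study sorted mouse brain cells (strain C57BL/6J, in vivo) by fluorescence with a dual reporter into GFP+ cells, labelled cortical neural progenitors, and RFP+ cells, labelled differentiated neuronal progeny, and hybridised 3 arrays from each population. Both groups carry the same strain label, and the design text describes the neurons as progeny of the progenitors. Cortex is named as the source of GFP+ cells, while the labels of RFP+ cells give brain alone. Age, the promoters that drive the reporters and whether replicates came from separate animals are not given in the sources used here. A p-value therefore reflects the spread among these arrays, which may be technical. Mmp15 and Adamts2 were not analysed here. All 10 radial glia markers and all 5 intermediate progenitor markers were higher in GFP+ arrays, and all 10 markers of postmitotic neurons were higher in RFP+ arrays (median log2 differences 2.36, 2.09 and -1.74).

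Matrix metalloproteinases (MMPs) are zinc-dependent enzymes made as inactive precursors. They cut collagens, laminins and other matrix proteins, and also release growth factors and the outer parts of membrane proteins. ADAMTS proteases are secreted relatives that carry thrombospondin repeats. They process procollagens and cut brain proteoglycans such as versican and brevican, while the ADAMTS-like proteins share the repeats and lack the catalytic domain. TIMPs block the active site of MMPs and of some ADAM and ADAMTS enzymes, and Reck is a membrane-anchored MMP inhibitor. In the developing cortex such enzymes act on the basement membrane under the pia, on the walls of growing vessels and on Reelin, the secreted guide of neuronal layering.

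Among the 50 members, 13 passed with more signal in GFP+ progenitors, 12 passed with more in RFP+ neurons and 25 did not pass the test (limma on log2(intensity + 16), adjusted p under 0.05 over all genes). That is 50% of the members, against 30% of all genes tested (13.8% higher in GFP+ and 16.2% higher in RFP+). Without GFP+ replicate 3, or without RFP+ replicate 1, the count higher in GFP+ was 8. The members spread widely and in both directions: their median log2 difference was -0.16, beside -0.08 over all genes, and their median absolute difference was 0.55, beside 0.37. A difference of at least 2-fold was seen for 4 members higher in GFP+ (7% of all genes) and 6 higher in RFP+ (5.98%). The 3 arrays of each group did not overlap for 31 members, 62.0% of them, against 43.9% of all genes. Differences are GFP+ minus RFP+ on that log2 scale with the standard error (SE), and folds on it understate the change of dim genes.

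**Figure D1:**
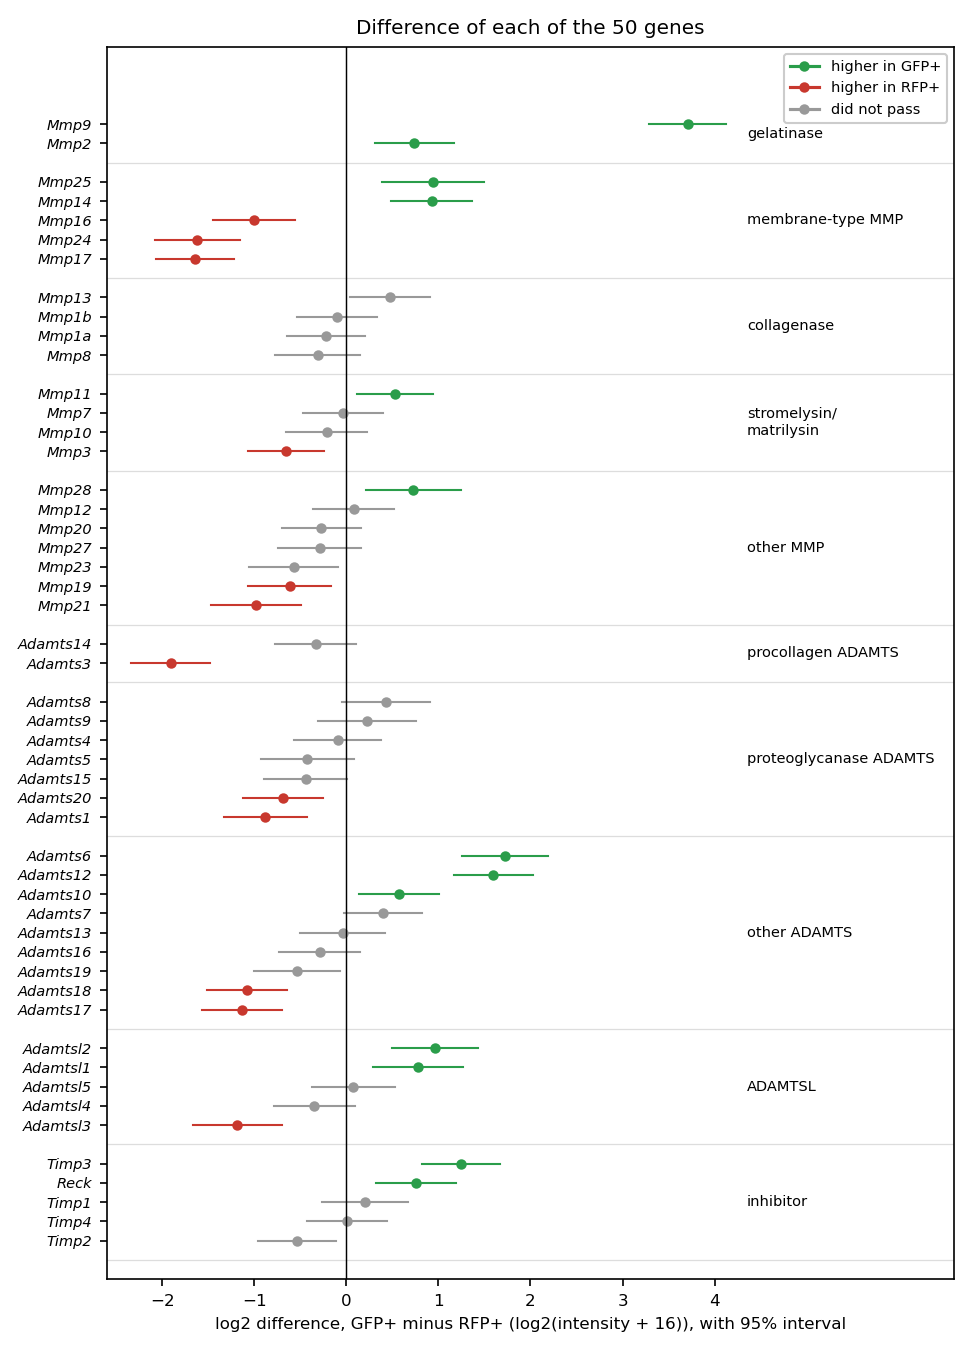
The horizontal axis is the log2 difference, GFP+ minus RFP+, of each of the 50 genes with its 95% interval, grouped by role, and colour gives the direction of those that passed. Mmp9 stands alone at 3.71 on the GFP+ side, Adamts3 at -1.91 lies farthest on the RFP+ side, and several roles hold called genes of both directions.

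Median intensities per array ran from 210.31 to 221.1. As a guide to background, the 95th percentile over 1015 genes of olfactory receptors, whose known site is the nose, was taken per array, and it averaged 216 in GFP+ and 211 in RFP+ arrays. By this guide 25 members were dim in both groups, 9 of which passed (36.0%, against 15.6% of all dim genes). The other 25 were above it in at least 1 group, and 16 of those passed (64%, against 38.9%). In bulk RNA, fewer cells of a type and less RNA per cell cannot be told apart.

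Sequence context was taken from promoter windows in RefSeq (build GRCm38.p6, 250 bases before to 50 after each gene's start), which hold 35 of the 50 genes in 38 windows. Windows were searched on both strands for the AP-1 site TGANTCA, the GC box GGGCGG and the TATA box TATAAA, whose letters cannot overlap one another. The members fell into 2 kinds of window. The 10 MMP genes that follow each other on chromosome 9 (Mmp13, Mmp12, Mmp1b, Mmp3, Mmp1a, Mmp10, Mmp8, Mmp27, Mmp20 and Mmp7) had a median GC content of 41.7%, an AP-1 site in 8 of 12 windows, a TATA box in 9 and a GC box in none. The other 26 windows had a median GC content of 65.3%, no AP-1 site, a TATA box in 3 and a GC box in 21. Among the promoters of all genes tested, 6.9% held the AP-1 site, 11.5% the TATA box and 49.2% the GC box. The windows printed are those of Timp3, higher in GFP+, of Adamts3 and Mmp24, higher in RFP+, and of Mmp3 and Mmp13 from the chromosome 9 run, chosen after their letters were seen to show both kinds, with the motif matches in capitals. They lie at chr10:86300162-86300461 (plus strand), chr5:89883285-89883584 (minus strand), chr2:155775092-155775391 (plus strand), chr9:7445572-7445871 (plus strand) and chr9:7272264-7272563 (plus strand), in that order. A match is a run of letters and not a measured binding site.
Timp3: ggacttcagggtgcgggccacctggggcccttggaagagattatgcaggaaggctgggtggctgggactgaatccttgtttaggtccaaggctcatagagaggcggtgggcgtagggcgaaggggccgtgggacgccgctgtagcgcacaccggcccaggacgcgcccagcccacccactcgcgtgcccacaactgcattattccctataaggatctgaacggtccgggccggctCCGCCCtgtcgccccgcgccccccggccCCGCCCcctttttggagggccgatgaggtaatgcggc
Adamts3: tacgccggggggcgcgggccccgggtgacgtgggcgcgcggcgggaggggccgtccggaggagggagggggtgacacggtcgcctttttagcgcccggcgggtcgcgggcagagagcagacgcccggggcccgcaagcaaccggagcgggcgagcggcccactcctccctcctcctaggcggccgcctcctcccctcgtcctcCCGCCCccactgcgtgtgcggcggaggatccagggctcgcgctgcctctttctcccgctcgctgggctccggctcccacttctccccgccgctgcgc
Mmp24: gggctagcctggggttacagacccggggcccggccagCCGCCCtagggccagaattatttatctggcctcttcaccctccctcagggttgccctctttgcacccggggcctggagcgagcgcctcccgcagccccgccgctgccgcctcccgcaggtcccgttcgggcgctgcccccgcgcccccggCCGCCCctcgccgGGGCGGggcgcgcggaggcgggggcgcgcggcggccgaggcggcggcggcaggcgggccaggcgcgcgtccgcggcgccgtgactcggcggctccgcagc
Mmp3: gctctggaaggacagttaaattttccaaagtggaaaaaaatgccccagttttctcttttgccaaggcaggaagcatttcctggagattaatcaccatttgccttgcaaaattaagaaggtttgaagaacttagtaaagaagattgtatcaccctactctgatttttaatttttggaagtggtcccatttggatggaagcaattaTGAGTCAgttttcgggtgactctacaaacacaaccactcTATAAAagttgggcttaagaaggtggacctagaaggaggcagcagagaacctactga
Mmp13: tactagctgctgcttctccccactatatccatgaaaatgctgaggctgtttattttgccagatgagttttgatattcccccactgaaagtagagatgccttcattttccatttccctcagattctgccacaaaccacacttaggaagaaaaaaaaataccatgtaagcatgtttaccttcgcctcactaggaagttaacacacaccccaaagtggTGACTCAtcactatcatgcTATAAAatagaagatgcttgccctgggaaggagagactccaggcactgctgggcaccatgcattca

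Of the 10 genes of the chromosome 9 run, 1 passed, Mmp3, and their log2 differences ranged from -0.66 to 0.47. All but Mmp7 were dim in both groups. The 8 members higher in GFP+ that have a window had a median GC content of 63.5%, and 7 held a GC box. The 9 members higher in RFP+ with a window had a median of 66.0%, and 6 held a GC box. These counts carry no test.

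Both gelatinases, the MMPs named for cutting denatured collagen and known for opening basement membranes, were higher in GFP+ progenitors. Mmp9 had intensities of 862, 678 and 743 in GFP+ arrays, against 45.8, 41.8 and 42.2 in RFP+ arrays. Every GFP+ array was far above the background guide and every RFP+ array far below it. The difference was 3.71 ± 0.20 (13.1-fold, adjusted p = 5.85e-10), the largest of the 50 genes. It passed in all 20 alternatives that tested it, and the filter on the dimmest 50% of genes left Mmp9 out. Mmp2, which cuts type IV collagen, averaged 217 ± 16.2 in GFP+ and 125 ± 23.6 in RFP+ arrays (SD, n = 3 each), without overlap (0.74 ± 0.21, adjusted p = 0.00999). The GFP+ mean of Mmp2 was barely above the background guide of 216, and its RFP+ mean was below the guide of 211. Its call was lost without RFP+ replicate 3 (adjusted p = 0.0678).

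All 5 genes grouped here as membrane-type MMPs (Mmp14, Mmp16, Mmp17, Mmp24 and Mmp25) passed, and they divided by gene. Their products are held at the cell surface by a transmembrane stretch or a lipid anchor. Mmp23 was not placed in this group and is given below with the other MMPs. Mmp14, encoding MT1-MMP, the main activator of the Mmp2 precursor, had intensities of 2603, 3084 and 2846 in GFP+ arrays, against 1173, 1626 and 1716 in RFP+ arrays. It was bright in both groups and higher in GFP+ by 0.93 ± 0.21 (1.90-fold, adjusted p = 0.00205). Mmp25, known from leukocytes, was higher in GFP+ by 0.94 ± 0.27 (adjusted p = 0.0107) at levels below the background guide in both groups.

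The other 3 membrane-type genes were higher in RFP+ neurons. Mmp17, encoding the lipid-anchored MT4-MMP, had intensities of 406, 360.1 and 309 in GFP+ arrays, against 1084, 1295 and 1068 in RFP+ arrays. Its difference was -1.64 ± 0.20 (3.12-fold higher in RFP+, adjusted p = 2.97e-06). Mmp24, encoding MT5-MMP, a form known from the nervous system that cuts N-cadherin, had 367, 516 and 317 in GFP+ arrays, against 1104, 1468 and 1169 in RFP+ arrays. The groups were well apart, with a difference of -1.62 ± 0.22 (3.07-fold higher in RFP+, adjusted p = 9.53e-06). Mmp16, encoding MT3-MMP, had 562, 883 and 783 in GFP+ arrays, against 1444, 1567 and 1414 in RFP+ arrays. Here too no array of either group overlapped the other group (-0.998 ± 0.21, adjusted p = 0.00119).

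None of the 4 collagenase genes passed in limma (1, Mmp13, had an unadjusted p under 0.05), with log2 differences from -0.31 to 0.47, and all 4 were dim in both groups. Mmp13 passed with replicate number as a random block (adjusted p = 0.0363) and missed with a fixed one (0.0651). Mmp1a and Mmp1b are close copies, so their values may share signal. Of the stromelysin and matrilysin genes, Mmp11 was higher in GFP+ (0.53 ± 0.20, adjusted p = 0.0479) and Mmp3 higher in RFP+ (-0.66 ± 0.20, adjusted p = 0.0154), while Mmp10 and Mmp7 did not pass. The call of Mmp11 ended in each of the 6 fits without 1 array (adjusted p up to 0.133). Of the other 7 MMPs, all dim by the guide, Mmp28 was higher in GFP+ (0.73 ± 0.25, adjusted p = 0.0315), and Mmp21 (-0.98 ± 0.23, adjusted p = 0.00306) and Mmp19 (-0.61 ± 0.22, adjusted p = 0.0377) were higher in RFP+. The call of Mmp19 ended in 5 of the 6 fits without 1 array and that of Mmp28 in 3. Mmp23 missed the threshold at -0.57 ± 0.23 (adjusted p = 0.0689, and 0.0486 and 0.0224 with replicate number as a fixed and as a random block).

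**Figure D2:**
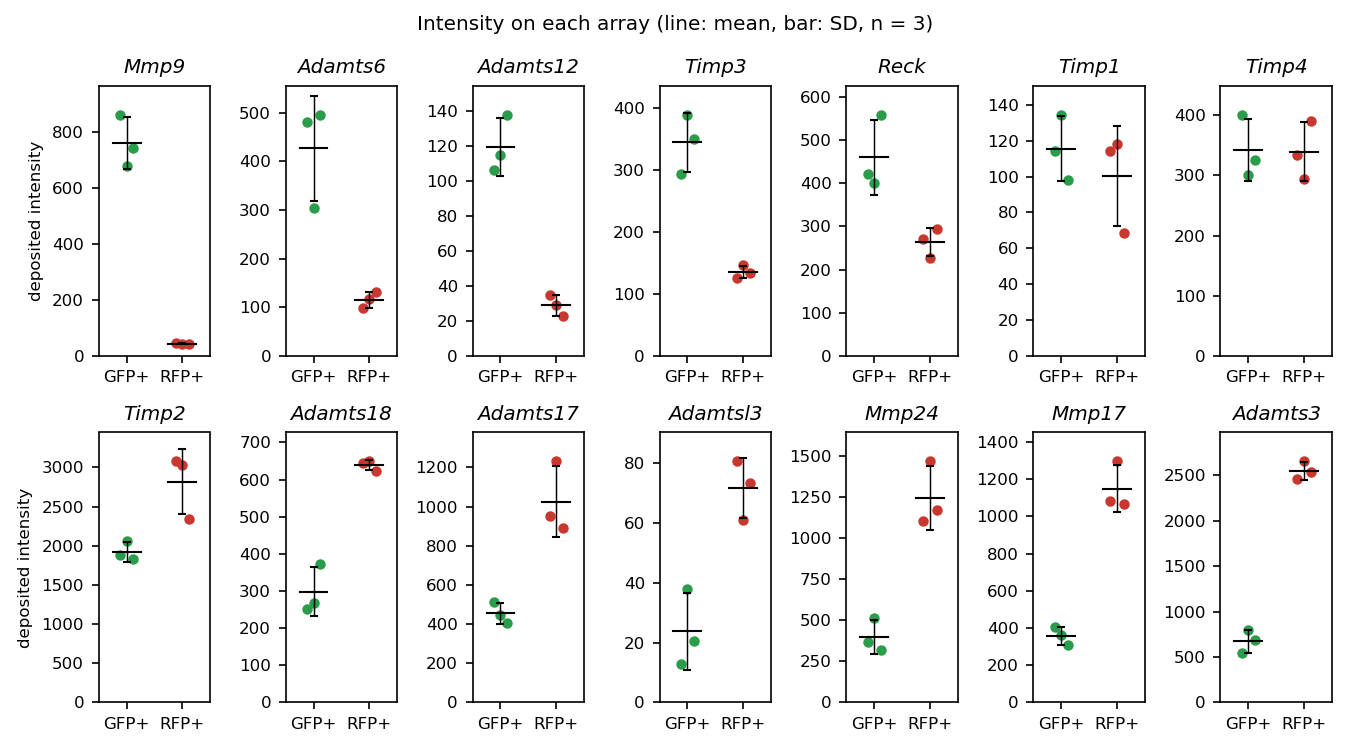
Each panel plots the deposited intensity of 1 gene on the 3 GFP+ arrays (left) and the 3 RFP+ arrays (right), with the mean and SD, for the members with a called difference of at least 2-fold and for all 5 inhibitors. Mmp9 averages 761 in GFP+ and 43.2 in RFP+ arrays, while Timp1 and Timp4 overlap between groups.

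Adamts3, a procollagen N-proteinase that in mouse brain also cuts and inactivates Reelin, showed the largest difference toward RFP+ neurons. Its brightest probe set read 544, 795 and 689 in GFP+ arrays, against 2458, 2655 and 2543 in RFP+ arrays. Every RFP+ array was far above the highest GFP+ array, and the difference was -1.91 ± 0.21 (3.75-fold higher in RFP+, adjusted p = 5.02e-07). The arrays carry 16 probe sets for this gene. All 16 were higher in RFP+ without overlap between groups, with differences from -2.24 to -1.52 and adjusted p up to 7.83e-06 over 21789 probe sets. The gene of its substrate Reelin, Reln, was likewise higher in RFP+ (-2.14 ± 0.21). Adamts14, the related procollagen enzyme, was dim and did not pass (-0.33, 95% interval -0.78 to 0.11).

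Of the 7 ADAMTS proteases known for cutting proteoglycans, none was called higher in GFP+ by its brightest probe set in limma (0 at an unadjusted p under 0.05) and 2 were higher in RFP+. The called share of these 7 genes, 28.6%, was near the 30% of all genes tested and carries no test. By the background guide 4 of the 7 were dim in both groups. Adamts1 averaged 227 ± 35.2 in GFP+ and 434 ± 95.5 in RFP+ arrays (SD, n = 3 each; -0.88 ± 0.22, adjusted p = 0.00387). Adamts20 was dimmer and differed by -0.68 ± 0.21 (adjusted p = 0.0174). The aggrecanase genes Adamts4 and Adamts5 did not pass, at -0.09 (95% interval -0.57 to 0.38) and -0.42 (-0.93 to 0.08), and neither did Adamts8 and Adamts15.

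Adamts9, another proteoglycan-cutting enzyme, gave different answers by probe set. Its brightest probe set read 956, 438 and 488 in GFP+ arrays, against 531, 431 and 552 in RFP+ arrays. GFP+ replicate 1 alone was high and the groups overlapped (0.23 ± 0.25, adjusted p = 0.525). Of its other 5 probe sets, 4 were higher in GFP+ and none in RFP+, with differences over all 5 from 0.37 to 1.63. The most different of them read 247, 187 and 252 in GFP+ arrays, against 50.5, 72.1 and 67.2 in RFP+ arrays. With the mean of its probe sets the gene passed (0.90, adjusted p = 0.00202), so its call rests on which probe set stands for it. Which part of the transcript each probe set reads is not given in the files used here.

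The other ADAMTS genes again went both ways. Adamts6, a relative of Adamts10 linked to fibrillin microfibrils, had intensities of 481, 303 and 496 in GFP+ arrays, against 99, 117 and 131 in RFP+ arrays. GFP+ replicate 2 was the lowest of its group and still well above the highest RFP+ array, for a difference of 1.73 ± 0.22 (3.31-fold, adjusted p = 4.71e-06). Adamts12, which can degrade cartilage oligomeric matrix protein, had 106, 115 and 138 in GFP+ arrays, against 34.9, 29.0 and 22.6 in RFP+ arrays. It was dim by the guide in both groups but did not overlap (1.60 ± 0.21, 3.03-fold, adjusted p = 4.56e-06). Adamts10 was higher in GFP+ by 0.57 ± 0.21 (adjusted p = 0.0439), a call that ended in 4 of the 6 fits without 1 array.

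Adamts17 and Adamts18 were higher in RFP+ neurons. The brightest probe set of Adamts17, a gene linked in humans to short stature and lens dislocation, read 512, 447 and 407 in GFP+ arrays, against 952, 1230.5 and 889 in RFP+ arrays. Its difference was -1.13 ± 0.21 (2.19-fold higher in RFP+, adjusted p = 2.76e-04), and all 5 of its probe sets were higher in RFP+, from -1.92 to -0.67. Adamts18 had 252, 268 and 373 in GFP+ arrays, against 644, 649 and 624 in RFP+ arrays. The RFP+ arrays lay close together and above all GFP+ arrays (-1.08 ± 0.21, 2.12-fold higher in RFP+, adjusted p = 4.40e-04). Adamts7, Adamts13 (which cuts von Willebrand factor), Adamts16 and Adamts19 did not pass, with differences from -0.53 to 0.40. Adamts19 passed with replicate number as a random block (adjusted p = 0.027) and missed with a fixed one (0.0529).

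**Figure D3:**
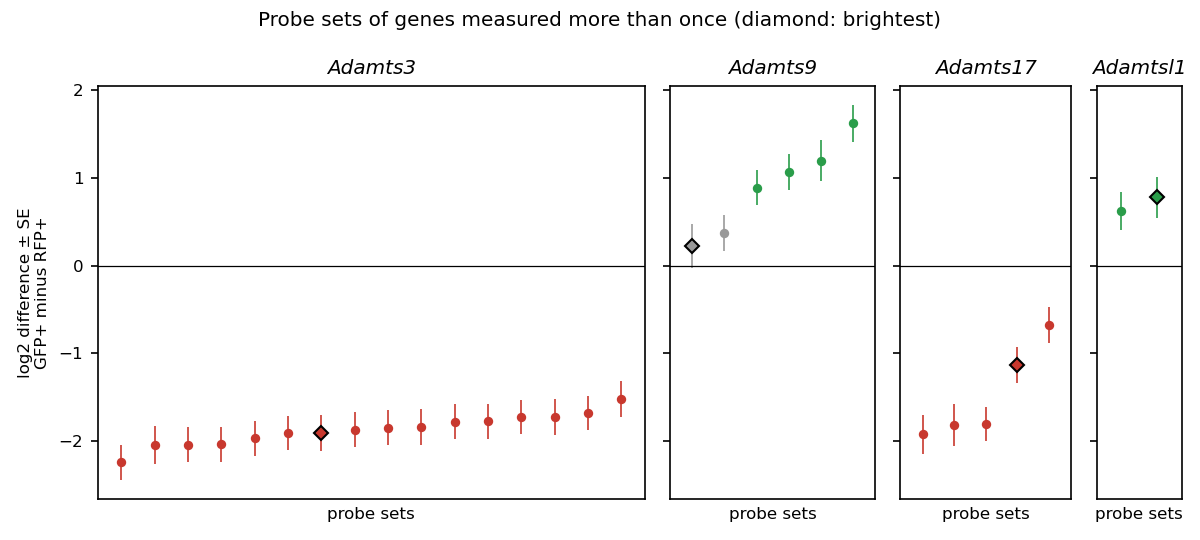
Each point is the log2 difference ± SE of 1 probe set, GFP+ minus RFP+, for the 4 genes measured by more than 1, with the brightest as a diamond and grey where the adjusted p over all probe sets missed 0.05. All 16 of Adamts3 and all 5 of Adamts17 lie below 0, and the brightest probe set of Adamts9 has the smallest difference of its 6.

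ADAMTS-like genes, whose products bind fibrillin and other microfibril proteins, were dim or of middling brightness. Adamtsl3 had intensities of 12.9, 38.1 and 20.6 in GFP+ arrays, against 80.7, 61.1 and 73.5 in RFP+ arrays. The groups did not overlap (-1.18 ± 0.23, adjusted p = 5.26e-04), but all 6 values lay below the background guide. Adamtsl2 (0.96 ± 0.22, adjusted p = 0.00254) and Adamtsl1 (0.78 ± 0.23, adjusted p = 0.0151) were higher in GFP+, and both probe sets of Adamtsl1 passed. Adamtsl4 and Adamtsl5 did not pass.

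Among the inhibitors, Timp3 and Reck were higher in GFP+, and none was called higher in RFP+ in limma (1, Timp2, at an unadjusted p under 0.05). The called share of the 5 inhibitors was 40%, against 30% of all genes tested, and carries no test. Timp3, a matrix-bound inhibitor that also blocks ADAM17, had 294, 388 and 350.4 in GFP+ arrays, against 126, 146 and 134 in RFP+ arrays. Every GFP+ array was above the background guide and every RFP+ array below it (1.24 ± 0.20, 2.37-fold, adjusted p = 7.35e-05). Reck, which is also part of a Wnt7 receptor complex, had 422, 400.0 and 559 in GFP+ arrays, against 271, 228 and 294 in RFP+ arrays. The groups did not overlap (0.76 ± 0.21, 1.69-fold, adjusted p = 0.00939), and the call was lost without RFP+ replicate 2 (adjusted p = 0.0547).

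Timp2, which blocks MMPs and also joins Mmp14 in activating the Mmp2 precursor, did not pass, although its groups did not overlap. It had intensities of 1879.9, 2063 and 1826 in GFP+ arrays, against 3076, 3030.2 and 2336 in RFP+ arrays. All RFP+ arrays were the higher ones, and the difference of -0.54 ± 0.20 missed the threshold (adjusted p = 0.0527) but passed with replicate number as a fixed and as a random block (adjusted p = 0.0268 and 0.0145). Of these partners Mmp14 and Mmp2 were called higher in GFP+, and the 95% interval of the Timp2 difference ran from -0.96 to -0.11. Timp1 had 114, 134 and 98.1 in GFP+ arrays, against 114, 118 and 68.3 in RFP+ arrays, and Timp4 had 400.4, 300.2 and 326 in GFP+ arrays, against 334, 294 and 391 in RFP+ arrays. Both genes overlapped between groups, with 95% intervals of the difference from -0.27 to 0.67 for Timp1 and from -0.42 to 0.44 for Timp4. In the RefSeq annotation Timp1, Timp4 and Timp3 overlap the synapsin genes Syn1, Syn2 and Syn3, all higher in RFP+ (-1.95, -1.20 and -1.40, in that order). Mmp24 likewise overlaps BC029722 (-0.63), higher in RFP+, and Mmp25 overlaps Bicdl2 (0.57) and Mmp19 overlaps Tmem198b (0.82), both higher in GFP+. Whether the probe sets fully separate these overlapping genes was not tested.

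Markers of other cell types were higher in the same GFP+ arrays. Of 11 endothelial markers 10 were higher in GFP+, with summed intensities of 2196, 5160 and 7084 in GFP+ arrays, against 784, 733 and 1018 in RFP+ arrays. The sum on GFP+ replicate 1 was less than that on either other GFP+ array. Of 10 pericyte and mural markers 8 were higher in GFP+ (summed 7275, 5798 and 7419 in GFP+, against 1334 to 1478 in RFP+), of 10 meningeal fibroblast markers 6 (3894, 3377 and 4120 in GFP+, against 860.2 to 1058 in RFP+), and of 7 oligodendrocyte progenitor markers, 2 of them shared with those lists, 6 (1637 to 2349 in GFP+, against 435 to 489 in RFP+). No marker of these lists was at 0 on any array. Mmp9 was highest on GFP+ replicate 1, where the endothelial sum was lowest, and lowest on replicate 2, where the mural and meningeal sums were lowest. Adamts6, Adamts10 and Reck had the order of the mural and meningeal sums over the 3 GFP+ arrays. Adamts12, Mmp25, Mmp28, Adamtsl1 and Adamtsl2 were each lowest on GFP+ replicate 1 and highest on replicate 3, as was the endothelial sum. Mmp2, Mmp11, Mmp14 and Timp3, also called higher in GFP+, had neither of these orders. Of these, Mmp2 was highest on GFP+ replicate 2 and lowest on replicate 3, as was the oligodendrocyte progenitor sum (2235, 2349 and 1637 in GFP+). With 3 arrays few orders are possible, and the share of all genes with each order was not counted. The calls of Mmp25, Mmp28 and Adamtsl1 were lost without GFP+ replicate 3 (adjusted p = 0.0609, 0.167 and 0.0671). The part of these cells in the results was not tested.

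**Figure D4:**
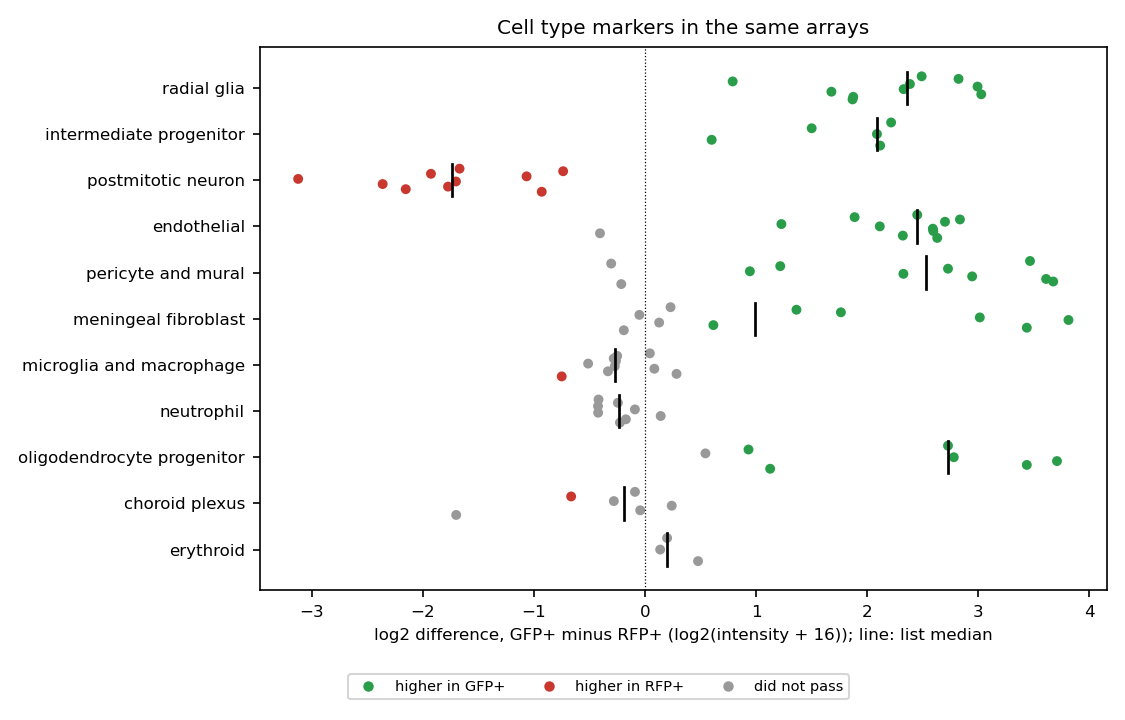
Each point is the log2 difference of 1 marker gene, GFP+ minus RFP+, with the list median as a line and colour for the direction of those that passed. Radial glia, endothelial, mural and oligodendrocyte progenitor lists lie on the GFP+ side, with medians of 2.36 to 2.73, and the neuron list on the RFP+ side.

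White blood cells are a known source of Mmp8, Mmp9 and Mmp25. Of 8 neutrophil markers none passed in limma, and 0 had an unadjusted p under 0.05, with summed intensities of 966 to 1190 in GFP+ arrays, against 1308 to 1351 in RFP+ arrays. Of 10 microglia and macrophage markers 1, Trem2, passed, toward RFP+ (summed 1236 to 1817 in GFP+, against 1686 to 2055 in RFP+). By the background guide 5 of the 8 neutrophil markers and 7 of the 10 microglia and macrophage markers were dim in both groups. The part of white blood cells in the values of Mmp8, Mmp9 and Mmp25 was not tested. Choroid plexus markers were called higher in RFP+ for 1 of 6 (Clic6, -0.67, dim in both groups). Their sums were 698 to 834 in GFP+ arrays, against 799, 798 and 1958 in RFP+ arrays. Ttr read 1204 on RFP+ replicate 3, against 11.5 and 41.3 on RFP+ replicates 1 and 2, and did not pass. None of 3 erythroid markers passed (1, Slc4a1, at an unadjusted p under 0.05).

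Genes that activate, dock, clear or are cut by these enzymes were followed in 8 lists. Of their 79 measured genes, 22 were higher in GFP+ and 17 in RFP+, together 49.4% against 30% of all genes. Of the 56 above the background guide in at least 1 group, 55.4% passed, against 38.9% of all such genes. The lists were chosen with earlier results of these data known, so these shares carry no test. By list the share ran from 28.6% (proprotein convertases) and 33.3% (plasminogen system, and cathepsin, HtrA and cystatin genes) to 66.7% (ADAM proteases, and fibrillin partners). Of 9 genes of the plasminogen system, whose product plasmin activates several MMP precursors, 1 was higher in GFP+ and 2 in RFP+. Serpini1, encoding neuroserpin, an inhibitor of tissue plasminogen activator, averaged 873 ± 156 in GFP+ and 3098 ± 487 in RFP+ arrays (SD, n = 3 each; -1.81 ± 0.21, adjusted p = 1.56e-06). Plau, encoding urokinase, was higher in GFP+ (0.99 ± 0.23), and the plasminogen receptor gene Plgrkt higher in RFP+ (-0.93 ± 0.26). Of 7 proprotein convertases, which cut the precursors of membrane-type MMPs and ADAMTS enzymes, Pcsk5 (-1.04) and Pcsk7 (-0.61) were higher in RFP+ and none in GFP+ (0 at an unadjusted p under 0.05). Their share of 28.6% was near the 30% of all genes, and Pcsk5 was dim in both groups. Furin did not pass (0.36, 95% interval -0.08 to 0.79).

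ADAM proteases, the membrane relatives of the ADAMTS family, were called toward GFP+ for 2 and toward RFP+ for 6 of 12 genes. Adam17, the sheddase that Timp3 blocks, averaged 1369.99 in GFP+ and 657 in RFP+ arrays (1.04 ± 0.20, adjusted p = 5.48e-04). Toward RFP+ the largest were Adam22 (-1.30), Adam19 (-1.28) and Adam11 (-1.25). Not every gene of this list encodes an active protease: Adam22, a synaptic receptor, is among those without protease activity. Of 5 tolloid proteases and their enhancers, the procollagen enhancer genes Pcolce (1.51) and Pcolce2 (1.29) were higher in GFP+ and Tll2 (-0.62) in RFP+. Of 12 cathepsin, HtrA and cystatin genes, 3 were higher in GFP+, among them the serine proteases Htra3 (1.09) and Htra1 (0.81), and 1, Ctsb (-0.76), in RFP+. By the background guide Pcolce2, Tll2, Htra3 and Htra1 were dim in both groups.

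Of 10 genes of MMP induction, docking and clearance, 4 were higher in GFP+ and none in RFP+ (0 at an unadjusted p under 0.05), with a list median of 0.49. They included Itgav, an integrin subunit known to dock Mmp2 (5.65-fold, adjusted p = 1.24e-08), and the matrix genes Sparc (3.44 ± 0.22) and Nid1 (3.24 ± 0.23). Itgb3, the other integrin subunit of this list, did not pass (0.11, 95% interval -0.32 to 0.55) and was dim in both groups. Of 15 lecticans and other ADAMTS substrates, 5 were higher in GFP+ and 4 in RFP+. Bcan, encoding brevican, had 846, 960.3 and 857 in GFP+ arrays, against 76.2, 151 and 132 in RFP+ arrays, a difference of 2.78 ± 0.23. Col2a1 (2.73 ± 0.21) and Vwf (2.18 ± 0.28), the substrate of Adamts13 and also an endothelial gene, were higher in GFP+ as well, and Reln had the largest difference toward RFP+. Of 9 fibrillin and microfibril partners, 5 were higher in GFP+, led by Thsd4, an ADAMTS-like gene outside the symbol rule (3.30 ± 0.22), Ltbp4 (1.33) and Ltbp3 (1.08), and 1, Fbn2 (-1.06), in RFP+.

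**Figure D5:**
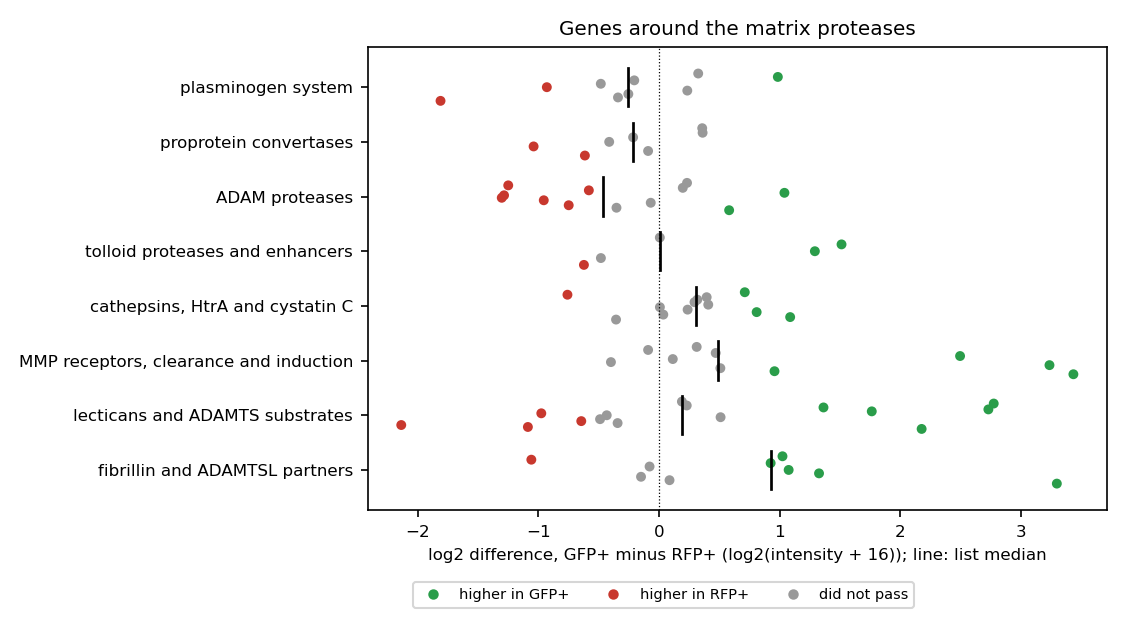
Each point is the log2 difference of 1 gene around the matrix proteases, GFP+ minus RFP+, with the list median as a line and colour for the direction of those that passed. The ADAM list has the lowest median (-0.47) and the fibrillin and ADAMTSL partners the highest (0.93), and each list holds genes that did not pass.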

How the data were processed

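Affymetrix whole-transcript arrays were made from total RNA of 3 GFP+ and 3 RFP+ samples. The authors deposited 1 intensity per probe set and array, made with Affymetrix Expression Console per the submitters' processing notes. Its version, background correction, normalization and summarisation are not given in the sources used here. Of 35557 probe sets 21789 carried 1 gene symbol in the platform annotation, 1621 carried several and 12147 are unnamed here. The number of arrays limits the precision. All 50 members matched RefSeq by Entrez ID.

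Log2(intensity + 16) was tested with limma 3.58.1 in R 4.3.3 (lmFit and eBayes, two-sided, Benjamini-Hochberg over 19938 genes, threshold 0.05, no filter on dim genes), after the pipeline was tested on simulated data. Every member could be named; values on each array are given for called members with a log2 difference of at least 1 and for all inhibitors, and a few more were added after their values were seen. From each pathway list at most the 3 largest called genes and the largest the other way are named. Furin, Itgb3, Trem2, Clic6, Ttr, Slc4a1 and genes that overlap a member were added. The members, lists and tests were chosen with earlier results of these data known.

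The titles carry replicate numbers. Across genes, deviations from the group mean correlated at 0.204, 0.288 and 0.361 for pairs with the same number and at -0.266 to 0.00416 between different numbers, so the numbers were taken to pair the samples, although deviations within a group sum to 0. The fit without the block was kept as the main one. Alternatives were the fixed and random replicate block, other pseudocounts, quantile normalization, median centring, filters on dim genes, other choices of probe set, array weights, an intensity trend, stricter thresholds and leaving out arrays.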

Additional observations from a re-analysis of the deposited data

How the results depend on the processing

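Of the 25 members that passed, 15 kept the call in all 6 fits without 1 array and 10 lost it in at least 1 (Mmp2, Mmp3, Mmp11, Mmp19, Mmp25, Mmp28, Adamts10, Adamts20, Adamtsl1 and Reck). No called member changed sign under any alternative run. Leaving out 1 array gave 8 to 12 members higher in GFP+ and 10 to 13 higher in RFP+, and 4506 to 5566 genes in all. Without both arrays numbered 1, 3850 genes passed. Without the dimmest 50% of genes, 4513 of 9969 genes passed. Of the 18 members then tested, 4 were higher in GFP+ and 8 in RFP+, and 13 partner genes were higher in GFP+ and 11 in RFP+. At an adjusted p under 0.01, 3905 genes passed and 8 members were higher in GFP+. Requiring 2-fold left 2588 genes, 4 members higher in GFP+ and 6 in RFP+, and 8 partner genes higher in RFP+. The replicate blocks raised the count over all genes from 5978 to 7371 (fixed) and 8181 (random). With a fixed replicate block, Timp2 and Mmp23 passed as well (adjusted p = 0.0268 and 0.0486), giving 13 members higher in GFP+ and 14 in RFP+. With a random replicate block, Timp2, Mmp23, Adamts19 and Mmp13 passed as well (adjusted p = 0.0145, 0.0224, 0.027 and 0.0363), giving 14 and 15. Neither block changed another member's call. Of the members that did not pass, single values were followed through all alternatives for Timp1, Timp2, Timp4 and Adamts9 alone, and 3 of these changed sign: Timp4 (-0.034 with quantile normalization, -0.029 with median centring, -0.11 without both arrays numbered 1, and -0.10 to 0.11 leaving out 1 array), Adamts9 (-0.11 to 0.43 leaving out 1 array, -0.075 without both arrays numbered 1) and Timp1 (-0.017 to 0.32 leaving out 1 array). The cause of these changes was not tested. Signal near background limits what can be said of the 25 members that were dim in both groups.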
